A study of Ovis aries with 3 samples.

Results

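miR-802, miR-31, and miR-122 were described across the duodenum (DU), cecum (CE), and proximal colon (CO) of sheep. In the count files they carry the names of predicted rows: novel_mir_392 (nested with miR-802-5p), novel_mir_404 (nested with miR-31), and novel_mir_251 (nested with miR-122). Each was summed with every other predicted row whose mature sequence contains it or is contained in it, which gave 6 of the 822 rows and 3 of the 667 entries left after all nested predicted rows were summed. The 3 miRNAs were chosen from their high read counts in the DU library, so their differences between DU and the other libraries are a description and were not tested. The samples were labelled as mucosal epithelium of the intestine of Small tailed Han sheep, and no treatment was named. Each segment had 1 library, made by pooling RNA of the same 3 ewes, which were 11 months old. There were therefore no replicates, and the spread between animals is unknown. The counts of the 822 rows added up to 14462675 duodenal, 15072945 cecal, and 13769740 colonic reads, which is not the whole depth of the libraries.

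A miRNA is a short RNA that is cut from a hairpin precursor and guides the Argonaute proteins to messenger RNAs, mostly through its seed, the bases 2 to 8 from the 5′ end. miR-122 is best known as the dominant miRNA of hepatocytes, where it acts on cholesterol and lipid metabolism. miR-31 is expressed in the intestinal crypt, where it promotes Wnt signaling and the proliferation of stem cells, and it is raised in many colorectal tumors. miR-802 is known from the liver, the pancreas, and the small intestine, and hepatocyte nuclear factor 1-beta is among its described targets.

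The mature sequences of the 6 rows are shown because the reads of one miRNA were listed under different rows in different libraries. They are written 5′ to 3′ with the seed in capitals.
miR-802, novel_mir_392: tCAGTAACaaagattcatccttg
miR-31, novel_mir_499: aGGCAAGAtgctggcatagct
miR-31, novel_mir_404: aGGCAAGAtgctggcatagctg
miR-31, novel_mir_324: aGGCAAGAtgctggcatagctgt
miR-122, novel_mir_251: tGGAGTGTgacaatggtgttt
miR-122, novel_mir_472: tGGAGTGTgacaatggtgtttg

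The 3 miRNAs had 3 different seeds, and none of these seeds was present in any other of the 822 rows. Rows of the same miRNA started at the same base and differed at the 3′ end alone. The rows of miR-31 were 21, 22, and 23 nt long, and those of miR-122 were 21 and 22 nt long. Among the names of the study's sequence table, novel_mir_499 was identical to bta-miR-31 and novel_mir_472 to bta-miR-122, while novel_mir_392 was 1 nt longer than mmu-miR-802-5p. No further row, known or predicted, shared a run of 15 bases with any of the named rows.

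In each library, the reads of a miRNA were listed under no more than 1 row. All 981 duodenal reads of miR-31 were under the 22-nt row novel_mir_404. All 12 cecal reads were under the 23-nt row novel_mir_324 (share 100%, Wilson 95% interval 75.8 to 100%). All 10 colonic reads were under the 21-nt row novel_mir_499 (72.2 to 100%). These intervals take each read as listed independently of the others. Most nested entries had reads in at most 1 row per library, as given below, so the intervals do not estimate isoform shares in the tissue. For miR-122, the 22-nt row novel_mir_472 held all 2170 duodenal and all 372 colonic reads, while the 21-nt row novel_mir_251 held all 281 cecal reads. Taken alone, novel_mir_251 therefore had cecal reads and 0 reads elsewhere, whereas the summed miR-122 was lowest in the cecum.

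The same layout was common among predicted miRNAs. Of the 118 entries made of 2 or more nested rows, 102 (86.4%) had at most 1 row with reads in every library. Of the 94 such entries with reads in 2 or more libraries, 56 (59.6%) were led by different rows in different libraries. In 98 of the 118 entries (83.1%), all rows started at the same base.

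**Figure D1:**
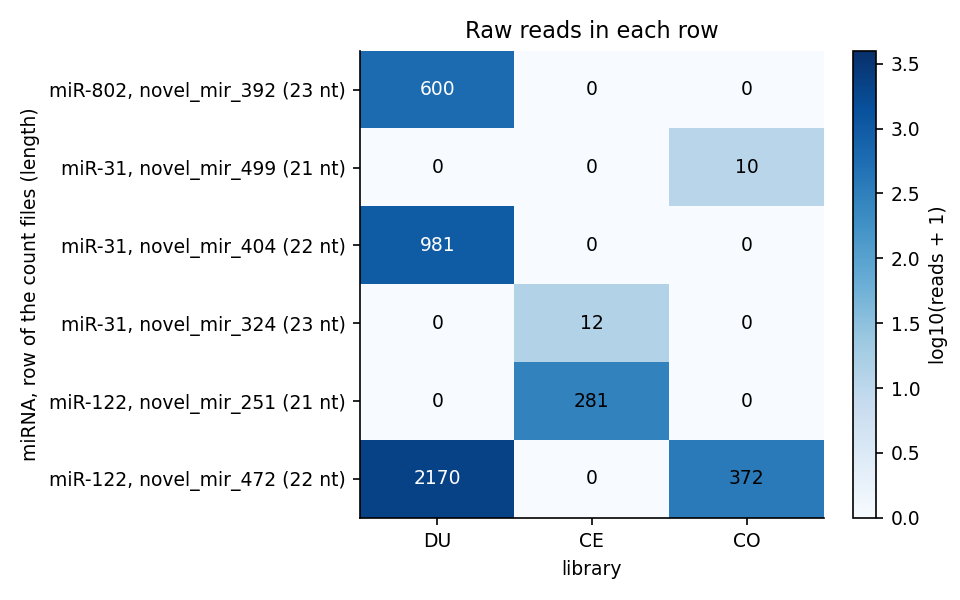
Raw reads in each of the 6 rows (vertical axis, with the length in nt) by library (horizontal axis), where the color gives log10(reads + 1) and the printed number the reads. Each miRNA had reads in no more than 1 row per library, and the row with reads differed between libraries for miR-31 and miR-122.

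miR-122 had 2170 duodenal, 281 cecal, and 372 colonic reads. Normalized to 1000000 reads mapped to the genome, its levels were 129.7 (exact Poisson 95% interval 124 to 135) in the duodenum, 16.5 (14.6 to 18.6) in the cecum, and 22.5 (20.2 to 24.9) in the colon. The duodenal level, on which miR-122 was chosen, was the highest, and the cecal and colonic intervals did not overlap. miR-122 ranked 91 among the 480 duodenal entries with reads, 153 of 426 in the cecum, and 142 of 440 in the colon. These intervals, like all others given here, describe counting error alone. In tissue RNA, a lower level per cell and fewer cells of the type that expresses a miRNA cannot be told apart.

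miR-31 had 981 duodenal, 12 cecal, and 10 colonic reads. Its levels were 58.6 normalized reads (55.0 to 62.4) in the duodenum, 0.706 (0.365 to 1.23) in the cecum, and 0.604 (0.289 to 1.11) in the colon. The cecal and colonic levels lay within each other's intervals, and both were far below the duodenal level. The rank of miR-31 went from 112 in the duodenum to 304 in the cecum and 330 in the colon.

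miR-802 had 600 duodenal reads, or 35.9 normalized reads (33.0 to 38.8), and 0 cecal and 0 colonic reads. The exact Poisson upper limit for the zeros was 0.217 normalized reads in the cecum and 0.223 in the colon. The 3 reads that stand in for a 0 in ratios correspond to 0.176 and 0.181 normalized reads. The smallest count above 0 was 5 reads among predicted rows and 1 read among known rows. Up to 4 reads in a predicted row may thus have been listed as 0. These 4 reads correspond to 0.235 normalized reads in the cecum and 0.241 in the colon. Reads left unlisted for another reason are not bounded by this. miR-802 ranked 132 among the duodenal entries with reads.

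**Figure D2:**
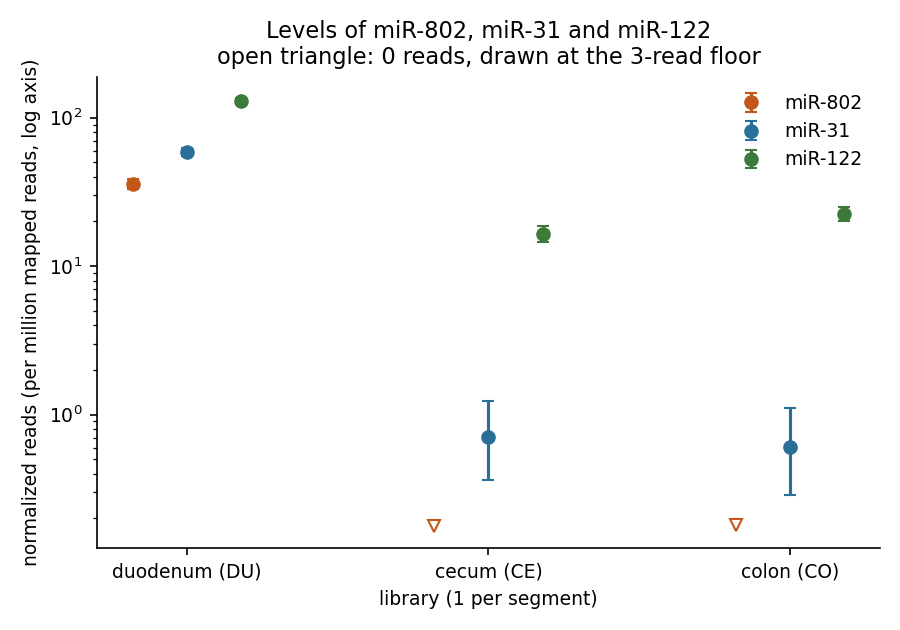
Normalized reads per 1000000 mapped reads (vertical log axis) of miR-802, miR-31, and miR-122 by library (horizontal axis), with exact Poisson 95% intervals for counting error as error bars. Duodenal levels ran from 35.9 for miR-802 to 129.7 for miR-122, miR-31 fell below 1 in the cecum and colon, and the open triangles mark 0 reads of miR-802 at the level of 3 reads.

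The duodenal levels of the 3 miRNAs were within an order of magnitude of each other. Each row spans a whole mature miRNA of 21 to 23 nt, so levels were compared as reads without a further correction for length. In the duodenum, miR-122 had 2.2 times the reads of miR-31 (exact binomial 95% interval 2.05 to 2.39) and 3.62 times those of miR-802 (3.30 to 3.97). miR-31 had 1.64 times the reads of miR-802 (1.48 to 1.81). The order by reads was therefore miR-122, miR-31, and miR-802, and the reads of each neighbor in it differed by more than counting error. Whether different miRNAs are captured with equal efficiency was not tested, so this is an order of reads and not of amounts in the tissue. In the cecum, miR-122 had 23.4 times the reads of miR-31 (13.2 to 45.9), and in the colon 37.2 times (20.0 to 78.2). Ratios within a library do not depend on the library size.

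Between the duodenum and the cecum, the 3 miRNAs differed by unequal amounts. miR-122 was 7.85-fold higher in the duodenum (log2 ratio of DU to CE 2.97, exact 95% interval from the binomial split of the reads 2.79 to 3.16). miR-31 was 83.1-fold higher (log2 ratio 6.38, 5.57 to 7.33), and 50.3-fold higher (log2 ratio 5.65) with 4 reads for each of its rows at 0. miR-802 was 203-fold higher when the cecal 0 was set to 3 reads, and 152-fold higher when it was set to 4 reads. The exact 95% interval computed with 3 reads, 69.2 to 988, treats these reads as observed. It is therefore not an interval for the observed 0. Among 325 entries that reached 1 normalized read in one of these libraries or both, the log2 ratios ranked 17 for miR-122, 7 for miR-31, and 3 for miR-802. All 3 miRNAs passed a fold of 2 toward the duodenum, as did 24.6% of the entries. The miRNAs were chosen on this contrast, so nothing is read from their count.

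The differences between the duodenum and the colon were of a similar size. miR-122 was 5.78-fold higher in the duodenum (log2 ratio of DU to CO 2.53, 2.37 to 2.69), and miR-31 was 97.1-fold higher (6.60, 5.72 to 7.67), or 54.4-fold (5.77) with 4 reads for each of its rows at 0. miR-802 was 198-fold higher with 3 reads in place of the 0, and 149-fold higher with 4 reads. The ranks were 36, 5, and 4 of 341 entries. A fold of 2 toward the duodenum was passed by all 3 miRNAs and by 20.5% of the entries, and again the miRNAs were chosen on this contrast. Both comparisons use the same DU library and are not independent of each other. Over all entries, the median log2 ratio was 0.30 from DU to CE and 0.20 from DU to CO.

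The contrast of the colon and the cecum did not enter the choice of the miRNAs. A total of 307 entries were tested, of which 14.3% were at least 2-fold higher in the colon and 6.84% at least 2-fold higher in the cecum. miR-122 was 1.36-fold higher in the colon (log2 ratio of CO to CE 0.44, 0.22 to 0.67). This difference was larger than counting error (exact Audic-Claverie test, two-sided p = 1.13e-04), but it passed neither the fold of 2 nor a Bonferroni-corrected p-value of 0.01 (corrected p = 0.0348, exact test). The test compares the reads of 2 libraries and not the segments. miR-31 stayed below 1 normalized read in both and was not tested, with a log2 ratio of CO to CE of -0.23 (-1.59 to 1.11). This interval holds differences of more than 2-fold in either direction, so a difference was not detectable at this depth. For miR-802, both libraries had 0 reads and no ratio was computed.

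**Figure D3:**
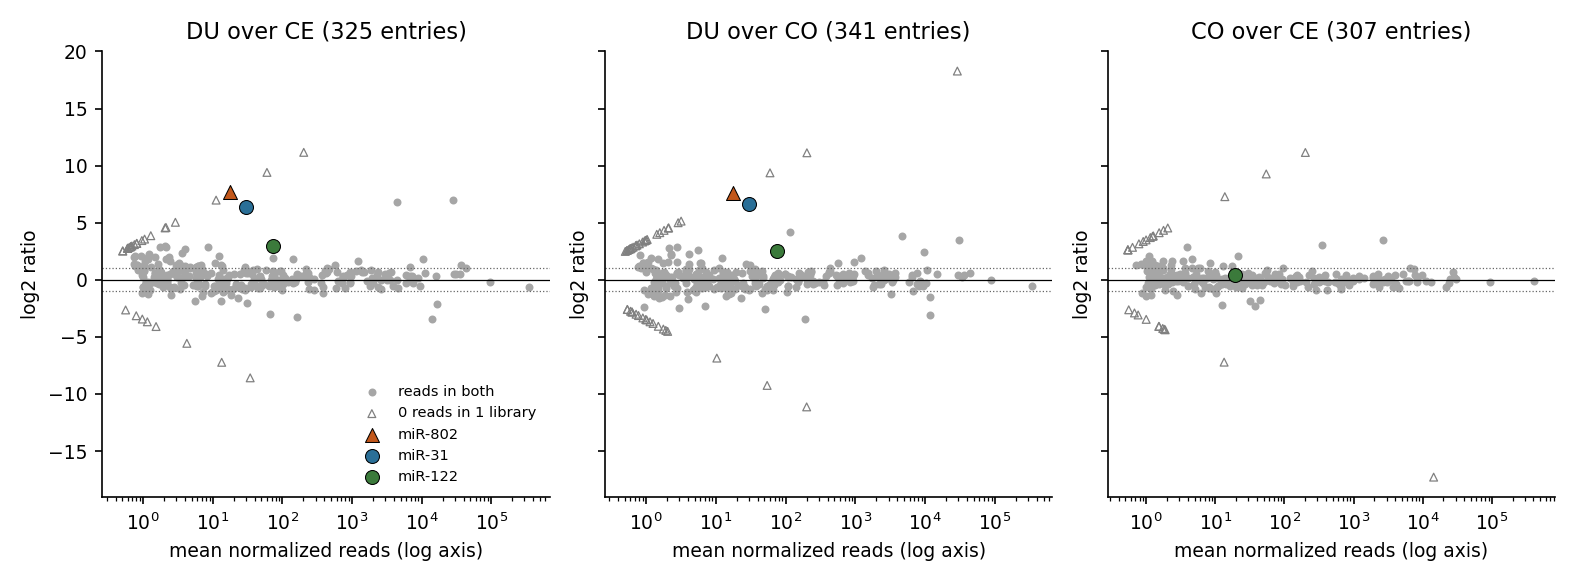
log2 ratio (vertical axis) against mean normalized reads (horizontal log axis) of all entries tested, for DU over CE (325 entries), DU over CO (341), and CO over CE (307), where dotted lines mark a fold of 2 and triangles mark entries with 0 reads in 1 library, set to 3 reads. The 3 miRNAs lie above the fold of 2 in both DU panels, miR-802 highest among them, and miR-122 lies between the dotted lines in the panel of CO over CE.

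The zeros of miR-802 were set beside those of other entries. Of the 216 entries with at least 100 reads in 1 library, 11 (5.09%) had 0 reads in another library. In 6 of these 11, a row that shared 15 bases with the entry had reads in a library where the entry was at 0. bta-miR-744 was such a case, with 2006 duodenal reads under novel_mir_634 and 1808 colonic reads under novel_mir_152, which starts 1 base earlier. For bta-miR-192, with 967314 duodenal, 490567 cecal, and 0 colonic reads, that row was novel_mir_174, which carries the name of another miRNA, bta-miR-215. A row that shares 15 bases is thus not always one of the same miRNA. In the other 5 entries, miR-802 included, no such row was present. Among them, the entry of bta-miR-1307 had 6775 duodenal reads and that of bta-miR-222 had 6655 colonic reads, with 0 reads in both other libraries. The remaining 2 were bta-miR-34c with 0 duodenal, 144 cecal, and 64 colonic reads, and bta-miR-196a with 0, 1171, and 344 reads in that order. Whether the zeros of miR-802 stand for an absence of the miRNA or for reads that were not listed was not tested. miR-31 and miR-122 had reads in every library when their rows were summed.

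The share of its normalized reads that an entry had in the duodenum was 100% for miR-802, 97.8% for miR-31, and 76.9% for miR-122. For miR-122, 9.80% were cecal and 13.3% colonic. Of the 246 entries with at least 100 reads over the 3 libraries, 6 (2.44%) had at least 90% of their normalized reads in the duodenum, and 32 (13.0%) had at least 50%. miR-802 shared rank 1 with the entries of bta-miR-744 and bta-miR-1307 named above, miR-31 had rank 4, and miR-122 rank 7. Between miR-31 and miR-122 lay the 23-nt row of miR-194 (92.7%) and bta-miR-215 (91.3%), both miRNAs of enterocytes. The known row oar-miR-194, which is not summed with the 23-nt row, had a share of 46.9%, and both rows of miR-194 together had 61.9%. The entry next below miR-122 was novel_mir_248 with 74.9%.

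**Figure D4:**
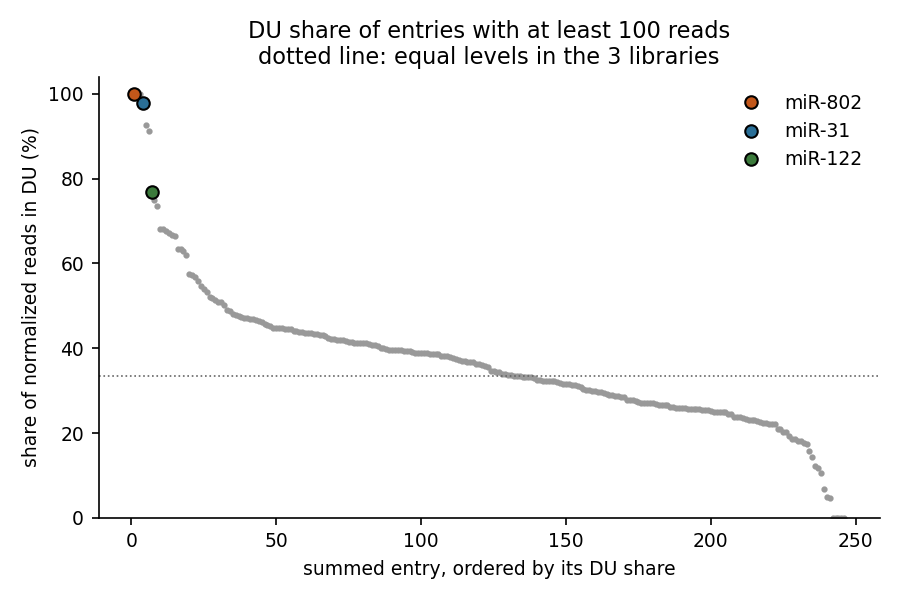
Share of normalized reads in the DU library in percent (vertical axis) of the 246 entries with at least 100 reads, ordered by this share (horizontal axis), where the dotted line marks equal levels in the 3 libraries. miR-802 (100%), miR-31 (97.8%), and miR-122 (76.9%) lie among the first 7 entries.

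The entries closest in pattern were found by the Euclidean distance between the 3 shares, over the 3 libraries and the 246 entries. For miR-802 these were novel_mir_634 (bta-miR-744) and novel_mir_665 (bta-miR-1307), both at a distance of 0, followed by miR-31 at 0.0268. The distance of novel_mir_634 holds for that row alone, since both rows of bta-miR-744 together had a duodenal share of 52.3%. The same entries, with miR-802 itself, were closest to miR-31. For miR-122 the closest was novel_mir_46, which had no name in the sequence table, at 0.0406 and with 114 duodenal, 18 cecal, and 23 colonic reads. It was followed at 0.120 by novel_mir_181 (nested with bta-miR-1388-5p), with 1949, 522, and 392 reads in that order. The next was an entry of 5 nested rows led by novel_mir_231 at 0.127, with 328, 78, and 87 reads.

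Marker miRNAs of organs near the duodenum and of the cell types of the gut wall were measured beside the 3 miRNAs, and sums are given in the order DU, CE, CO. All 5 members of the epithelial miR-200 family had reads in every library, and they added up to 28937, 24747, and 38944 normalized reads, with no member differing 2-fold between DU and another library. The enterocyte miRNAs miR-192, miR-194, and miR-215 added up to 131211, 33664, and 11517 normalized reads. The order of CE and CO in these sums came from miR-192 alone, with 57806, 28847.5, and 0 normalized reads. miR-194 (17964, 4382, and 6687) and miR-215 (55441, 435, and 4830) were higher in CO than in CE. All of these enterocyte miRNAs were at least 2-fold higher in DU than in CE and CO. For miR-192, the colonic 0 was set to 3 reads, and the log2 ratio of DU to CE was at the fold of 2 itself. That ratio was 0.88 with edgeR TMM, 0.91 with DESeq2 size factors, and 0.93 with all clean reads. miR-143, abundant in smooth muscle and other mesenchymal cells, had 275281, 429102, and 399239 normalized reads in libraries labelled as epithelium. miR-206, a miRNA of striated muscle, had 728, 511, and 298 reads and was highest in DU. oar-miR-133, also of striated muscle, had 3946, 9086, and 4867 reads and was lowest in DU. Markers were matched only by identical or nested sequences, and oar-miR-133 was not matched to miR-133a or miR-133b of the muscle list by this rule. How similar these sequences are was not compared. miR-133a, miR-133b, miR-1, and miR-145 had no matching row.

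Of the liver list, miR-122 had rows and miR-885 was not analysed here. Of 4 pancreas miRNAs, miR-216a and miR-217 had rows, and they added up to 11.4, 4.76, and 1.57 normalized reads. miR-217 had 160, 67, and 26 reads, with log2 ratios of 1.28 from DU to CE (0.86 to 1.71) and 2.61 from DU to CO (2.003 to 3.26). miR-216a had 30, 14, and 0 reads, with a log2 ratio of 1.12 from DU to CE (0.16 to 2.15) that was 0.998 with TMM, just below a fold of 2. The summed levels of the pancreas and enterocyte lists were thus highest in the duodenum, in the same direction as miR-802, miR-31, and miR-122.

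Among the blood miRNAs, miR-451 had 0 reads in every library, miR-144 had 27, 0, and 0 reads, and miR-486 had 40.0, 38.8, and 28.7 normalized reads. The 4 immune miRNAs with rows (miR-150, miR-155, miR-146a, and miR-146b) added up to 3159, 1645, and 1396 normalized reads. miR-7, of the enteroendocrine list, had 2469.5, 1338, and 1465 normalized reads, and the neural miR-124a had 37, 37, and 36 reads. All 4 immune miRNAs and miR-7 were highest in the duodenum, like the pancreas and enterocyte lists, and so were miR-144 and miR-206. miR-486 was also highest there, but by little, with a log2 ratio of DU to CE of 0.04 (-0.11 to 0.20). This ratio changed sign with all clean reads (-0.03), edgeR TMM (-0.08), and DESeq2 size factors (-0.05). The part of any of these lists in the differences of miR-802, miR-31, and miR-122 was not tested. The 4 HOX cluster miRNAs with rows (miR-10a, miR-10b, miR-196a, and miR-615-3p) were all at least 2-fold lower in DU than in CE and CO, with 8590, 52972, and 38771 normalized reads in all and miR-196a at 0 in DU. The list for stratified epithelium, where miR-31 is also expressed, was not analysed here, since miR-203 and miR-205 had no row.

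**Figure D5:**
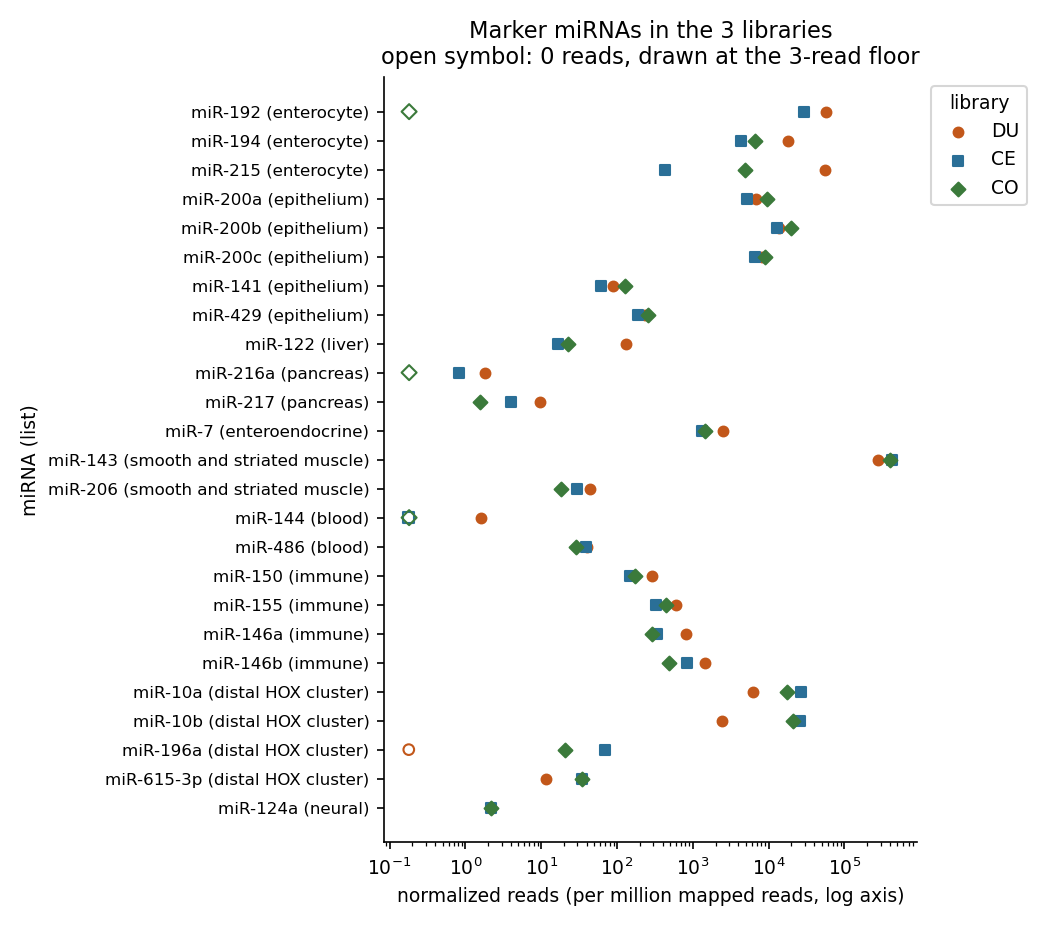
Normalized reads per 1000000 mapped reads (horizontal log axis) of the marker miRNAs with reads (vertical axis, with the list in parentheses) by library, where open symbols mark 0 reads at the level of 3 reads. miR-122, miR-144, miR-206, and the pancreas, enterocyte, enteroendocrine, and immune miRNAs were highest in the DU library, and the HOX cluster miRNAs were lowest there. miR-486 lay close together in DU and CE.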

How the data were processed

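The RNA of each segment was pooled over 3 ewes and sequenced as 1 small RNA library. Reads of low quality, with adapter faults, without an insert, with polyA, or under 18 nt were discarded by the authors. The remainder was aligned to Oar_v4.0 by SOAP, compared with miRBase by BLAST for known miRNAs, and searched for further hairpins by miReap. The submitters' processing notes also name Bowtie. The deposited files hold raw counts per mature sequence. Reads were assigned to predicted hairpins by the criteria for known miRNAs, which allow no mismatch and require a minimum overlap with the mature sequence. How a read matching several nested rows was placed is not given in the sources used here.

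Rows were summed where one mature sequence contains the other. Normalized reads are counts per 1000000 clean reads mapped to the genome, with the library totals that the study states. A library at 0 was set to 3 reads in ratios. The members and marker lists were chosen with earlier results of these data known. Named entries were the 3 members with their nested rows, the 3 entries nearest in pattern to each, and the marker miRNAs with a row. miR-222, miR-34c, oar-miR-133, novel_mir_152, and novel_mir_248 were named after their values were seen. Marker names were matched by the mature sequences of the study's sequence table. The CO and CE libraries were compared with the exact Audic-Claverie test, whose formula the study prints, with the smaller tail doubled and Bonferroni correction over all entries tested. The code was tested on simulated data. The quasi-likelihood test of edgeR needs replicates and was not used. Opposite arms, hairpins, and genomic positions were not analysed here, because no genome of the build was used. Alternative library sizes, row sums, filters, and values for a 0 were tried. Python 3.11.15, scipy 1.17.1, R 4.3.3, edgeR 4.0.16, and DESeq2 1.42.0 were used.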

Additional observations from a re-analysis of the deposited data

How the results depend on the processing

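The log2 ratios of miR-802, miR-31, and miR-122 were recomputed with library sizes from all clean reads, the sum of the counts, edgeR TMM, and DESeq2 size factors, with 4 reads for each row at 0, with 1 read added to both counts, with rows of the same first base alone, and, chosen after seeing the data, with all rows sharing 15 bases. Under these settings every ratio kept its direction, and those of miR-31 and miR-122 stayed within their counting intervals. The ratios of miR-802 with 3 reads in place of the 0, 7.67 (DU to CE) and 7.63 (DU to CO), were 7.25 and 7.21 with 4 reads. With 1 read added to both counts, these ratios were 9.25 and 9.22. With 4 reads for each row at 0, those of miR-31 fell to 5.65 and 5.77. Among the library sizes, TMM shifted the ratios to DU most, by -0.12 from DU to CE and by -0.16 from DU to CO, and put miR-122 at 2.85 and 2.37. With the named row alone, and 3 reads in place of each 0, the ratios of miR-31 became 8.38 (DU to CE) and 8.34 (DU to CO). Its CE and CO reads are in other rows. For miR-122 the named row alone turned the ratio of DU to CE to -6.53 and that of CO to CE to -6.51, since the row has reads in the CE library alone. It gave no ratio of DU to CO. In the edgeR exact test, with the biological coefficient of variation set to 0.4 by assumption, the corrected p for miR-122 between CO and CE went from 0.0348 to 1 (raw p = 0.601).

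The number of entries at least 2-fold higher was 80 in DU than in CE, 70 in DU than in CO, 44 in CO than in CE, and 21 in CE than in CO. In the same order, at least 10 reads in both libraries left 43, 30, 24, and 8 (14.5%, 10.2%, 8.14%, and 2.71% of the entries tested), and 1 read in either library gave 156, 123, 99, and 64 (29.2%, 22.4%, 19.8%, and 12.8%). The filter of 10 reads leaves out entries near 0 in 1 library, miR-802 among them. With every row on its own, the number higher in CE than in CO was 36. For the marker miRNAs, library sizes chosen after seeing the data moved 2 ratios across a fold of 2, those of miR-192 and miR-216a from DU to CE. Some of these library sizes also changed the sign of small ratios. These were the ratios of miR-200b, miR-486, and miR-124a from DU to CE, and of miR-124a from DU to CO. No paired analysis was possible because each segment had 1 pooled library, and for the same reason no library could be left out. The depth limits miR-31 in the cecum and colon, where it had 12 and 10 reads. It bounds miR-802 there only if no further reads of miR-802 were left unlisted.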
